A study of Mus musculus with 12 samples.

Results

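The genes described here are 10 tissue-specific splicing regulators of the mouse: Rbfox1, Rbfox2 and Rbfox3, Nova1 and Nova2, Elavl3, Srrm4, Ptbp1 and Ptbp2, and Esrp2. They were taken by symbol from the 55450 genes of a count table, and each symbol matched 1 gene. The libraries came from males of 7 to 9 weeks of age, either wild type (Vaultrc5+/+) or knockout (vaultrc5-/-) for Vaultrc5, the gene of the small non-coding RNA of the vault particle. Brain and liver were each measured in 3 wild-type and 3 knockout libraries, 12 in all, by stranded total RNA sequencing after removal of ribosomal RNA. The sample titles name the control libraries flx while their genotype label is wild type, and they are called wild type here. No treatment was given in the labels, and no part of the brain or lobe of the liver was named. The labels do not say whether libraries of a group came from different animals, so the p-values measure the spread between these libraries, which may be technical.

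Alternative splicing chooses which exons of a transcript are kept, and proteins that bind the transcript near an exon move that choice in one direction or the other. RBFOX proteins bind GCAUG elements, NOVA proteins bind YCAY clusters, ELAVL proteins bind U-rich and AU-rich stretches, and SRRM4 promotes the inclusion of neuronal microexons. PTBP1 represses neuronal exons in most non-neuronal cells. During neuronal differentiation its place is taken by PTBP2, whose own transcript is kept low in PTBP1-expressing cells through skipping of an exon and nonsense-mediated decay. ESRP2 promotes epithelial exon choices and is known in liver as a regulator of the adult hepatocyte splicing program.

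The expected counts summed to between 14844971 and 18567381 in a brain library and between 23247449 and 27155480 in a liver library. Vaultrc5 had 4, 1 and 4 counts in wild-type brain and 33, 39 and 48 in wild-type liver, and it was at 0 in all 6 knockout libraries. Levels are given as CPM, counts scaled to a common library size after normalization with edgeR's TMM factors. Values compared between genes are divided by the exon length of the gene in kilobases. The summed CPM of 6 hepatocyte markers was 0.300 to 2.28 in brain and 56105 to 93228 in liver. That of 6 neuronal markers was 3933 to 5433 in brain and 28.7 to 36.9 in liver, where Syt1 held most of it, Tubb3 was at 0 in the wild type and Snap25 was at 0 in the knockout. Brain libraries differed in what they held. The summed CPM of choroid plexus markers was 191, 351 and 493 in wild-type replicates 1 and 3 and knockout replicate 1 and 3.53 to 9.78 in the other brain libraries, and that of oligodendrocyte markers was 1494 to 5136 over the 6 brain libraries.

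Brain and liver differed in every one of the 10 genes. In the wild type, 8 were higher in brain and 2, Ptbp1 and Esrp2, were higher in liver, each called at an adjusted p under 0.05 in edgeR's quasi-likelihood test over all genes. The knockout libraries, which share no sample with the wild-type contrast, gave the same 8 and 2. These counts stand against a background in which most genes were called: 78.6% of 18850 genes in the wild type (43.9% higher and 34.7% lower in brain) and 78.7% of 18785 in the knockout (43.5% and 35.2%). The ranges of the 2 tissues did not overlap for any of the 10 genes in either genotype, as was the case for 82.4% of all genes tested in the wild type and 82.4% in the knockout. Rbfox1, Nova1 and Elavl3, at 0 to 2 counts in liver libraries, passed the low-count filter only through brain. Esrp2, at 0 to 11 counts in brain libraries, passed it only through liver. The calls and separate ranges of these genes were all but certain from then on and add no support. The median difference of the 10 genes was 3.39 on the log2 scale in the wild type and 3.36 in the knockout, beside 0.21 over all genes in either contrast. With library totals in place of TMM the median over all genes moved to 1.05 in the wild type and 1.08 in the knockout. Higher calls then rose from 55.8% to 74.4% of all calls in the wild type and from 55.3% to 75.1% in the knockout, and all 10 genes kept their direction and call. The log2 difference was then -1.65 and -1.77 for Ptbp1 and 2.48 and 2.87 for Srrm4 in the 2 genotypes. These are bulk tissues, in which fewer cells of a type and less RNA per cell cannot be told apart.

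**Figure D1:**
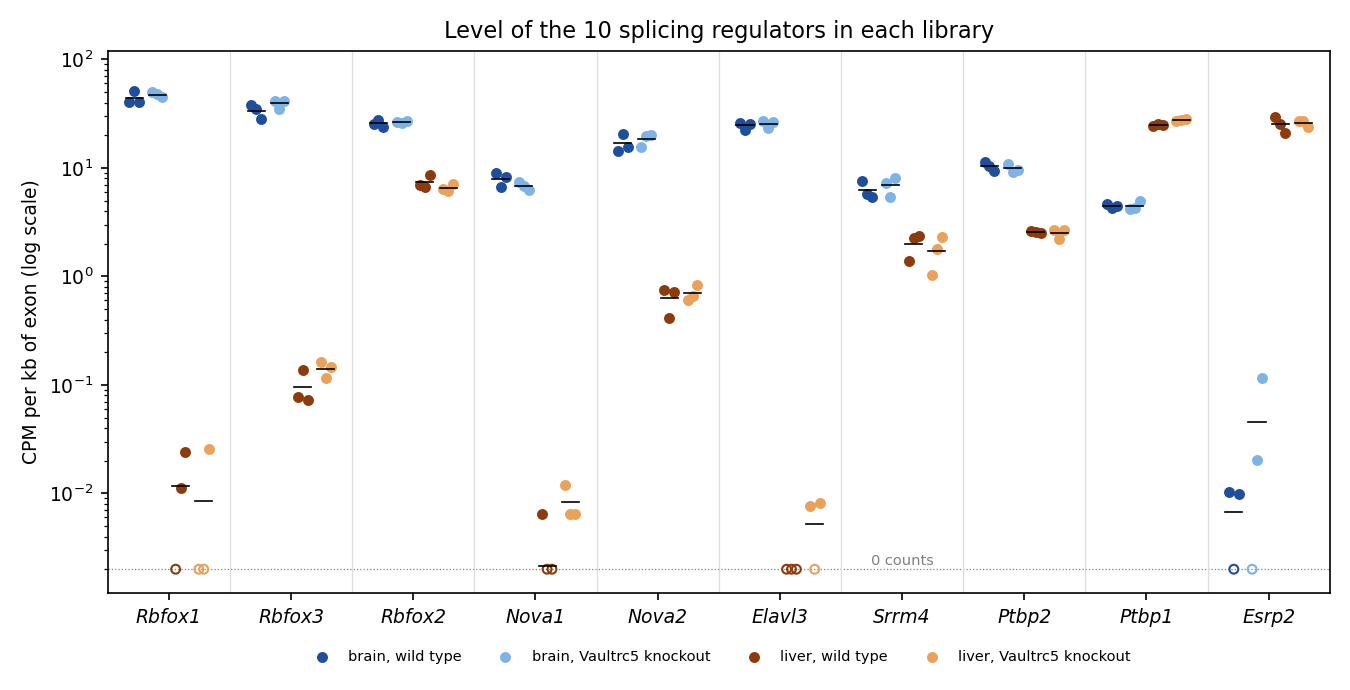
Level of each of the 10 splicing regulators in CPM per kilobase of exon (log axis), 1 filled point a library, coloured by tissue and genotype, with the mean of each group as a bar and libraries at 0 counts as open circles on the dotted line. Brain points lie above liver points for 8 genes and below them for Ptbp1 and Esrp2.

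The RBFOX family was present as 3 paralogs in brain and almost as Rbfox2 alone in liver. Rbfox1 (GRCm38 chromosome 16, 5885355 to 7411526, plus strand) stood at 178, 223 and 179 CPM in wild-type brain and at 219, 209 and 196 CPM in knockout brain. Wild-type livers had 0, 1 and 2 counts, and knockout livers 0, 0 and 2. The pooled brain-to-liver ratio was 3678 in the wild type (95% interval 1258 to 17838, counting error only) and 5665 in the knockout (1568 to 46780). No library of liver came near a library of brain, and the width of these intervals comes from the handful of liver counts.

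Rbfox3 (chromosome 11, 118489762 to 118911597, minus strand) encodes NeuN, the nuclear antigen by which neurons are commonly stained. Its brain levels were 220.4, 202 and 166 CPM in the wild type and 243, 203 and 241 CPM in the knockout. Liver held 0.450, 0.797 and 0.419 CPM in the wild type and 0.947, 0.676 and 0.842 CPM in the knockout, from 8 to 18 counts a library. The tissue difference was 8.44 ± 0.25 (SE) on the log2 scale in the wild type and 8.09 ± 0.18 in the knockout (edgeR adjusted p = 1.02e-07 and 1.14e-07). Unlike Rbfox1, it was above 3 counts in each liver library.

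Rbfox2 (chromosome 15, 77078990 to 77307004, minus strand) is the broadly expressed member of the family. It measured 208, 227 and 192 CPM in wild-type brain, and 56.2, 54.6 and 69.6 CPM in wild-type liver. The knockout values were 217, 211 and 220.5 CPM in brain and 52.0, 49.4 and 58.1 CPM in liver. The brain level was higher by 1.80 ± 0.13 in the wild type and 2.01 ± 0.11 in the knockout on the log2 scale (edgeR adjusted p = 8.05e-06 and 1.73e-06), a far smaller step than for its paralogs. Per exon length, Rbfox1, Rbfox3 and Rbfox2 made up 42.5% ± 3.1, 32.6% ± 3.3 and 24.9% ± 0.5 of the family in wild-type brain (SD, n = 3). In wild-type liver Rbfox2 made up 98.5% ± 0.6. The knockout shares were 41.8% ± 2.2, 34.7% ± 2.3 and 23.5% ± 0.8 in brain, and 97.8% ± 0.3 for Rbfox2 in liver. The summed level of the family was 92.7 to 118 CPM per kilobase in brain and 6.19 to 8.65 in liver. The order in brain depends on how exon length is counted, since without a length correction Rbfox2 held 35.0% and Rbfox1 32.3% of the wild-type family.

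The NOVA genes, named for the neuro-oncological ventral antigens, were both higher in brain, but only Nova2 was above 3 counts in liver. Nova1 (chromosome 12, 46694517 to 46818929, minus strand) stood at 78.7, 57.8 and 71.6 CPM in wild-type brain and at 64.8, 60.1 and 55.1 CPM in knockout brain. Wild-type livers had 1, 0 and 0 counts of it, and knockout livers 2, 1 and 1. The pooled brain-to-liver ratio was 3933 in the wild type (706 to 155368, counting error only) and 817 in the knockout (319 to 2999), and these intervals overlap. Nova1 shares 310 bases of exon with Gm33869 on the same strand, which had 179 to 300 counts in brain.

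Nova2 (chromosome 7, 18925888 to 18965319, plus strand) was at 119.9, 172 and 130.4 CPM in wild-type brain and 130.4, 163 and 168 CPM in knockout brain. Liver levels were 6.31, 3.49 and 6.03 CPM in the wild type and 5.11, 5.47 and 6.96 CPM in the knockout, from 70 to 124 counts a library. Each liver library thus held Nova2 above the floor of 3 counts, at a level far under that of brain. The difference was 4.75 ± 0.27 on the log2 scale in the wild type and 4.71 ± 0.18 in the knockout (edgeR adjusted p = 1.80e-06 and 4.04e-07). The antisense gene Gm26821 overlaps 2652 bases of Nova2 exon and had 0 or 1 counts in every library. Per exon length Nova2 made up 67.5% ± 7.3 of the NOVA family in wild-type brain and 72.6% ± 4.3 in knockout brain (SD, n = 3), and between 98.1% and 100% in each liver library.

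Elavl3 (chromosome 9, 22015005 to 22052023, minus strand), one of the neuronal ELAVL genes, gave 179, 155 and 176 CPM in wild-type brain and 185, 161 and 181 CPM in knockout brain. It was at 0 in all 3 wild-type livers and had 1, 0 and 1 counts in the knockout livers. With the wild-type livers set at 3 counts each, the wild-type brain level was at least 1071-fold higher. The knockout ratio was 4780 (1323 to 39477, counting error only). Elavl3 was the most abundant ELAVL gene in brain at 45.4% ± 3.8 of the family per exon length in the wild type and 46.7% ± 4.7 in the knockout. Its ubiquitous paralog Elavl1, which encodes HuR, made up 14.3% ± 1.0 and 14.8% ± 0.5 there. In liver the family was Elavl1 at 99.9% ± 0.1 in the wild type and 99.7% ± 0.3 in the knockout.

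Srrm4 (chromosome 5, 116439275 to 116591817, minus strand), the microexon regulator also called nSR100, was higher in brain and was also counted in each liver library. It stood at 65.1, 50.1 and 47.0 CPM in wild-type brain and at 62.8, 47.1 and 69.9 CPM in knockout brain. In liver it stood at 12.0, 19.7 and 20.2 CPM in the wild type and 9.00, 15.7 and 20.0 CPM in the knockout, from 171 to 396 counts a library. The ranges of the tissues lie apart, and the liver values spread over 2.25-fold from the lowest to the highest library. The difference was 1.65 ± 0.22 on the log2 scale in the wild type and 2.00 ± 0.29 in the knockout (edgeR adjusted p = 0.000261 and 0.000469).

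Several features inside the Srrm4 locus and its paralog behaved otherwise in liver. Srrm3, the closest paralog and likewise a microexon regulator, was at 1001 to 1236 counts in brain libraries and 0 to 2 in liver libraries. Per exon length Srrm4 made up 45.6% ± 1.0 of the pair in wild-type brain and 45.4% ± 2.3 in knockout brain (SD, n = 3), and 99.8% ± 0.4 and 100% in wild-type and knockout liver. Which of the pair was larger in brain depends on the gene length used. Srrm4 held 53.2% in wild-type and 53.0% in knockout brain without a length correction, and 37.4% and 37.2% with the longest annotated transcript. The genes Gm42853, Gm42854 and 4933430H06Rik lie within Srrm4 on the same strand with no shared exon. They had 63 to 136, 15 to 53 and 23 to 88 counts in brain and were at 0 in all 6 livers. Srrm4os, on the opposite strand with 68 bases of shared exon, had 12 to 20 counts in liver and 0 to 3 in brain. The neuronal marker Syt1 had 444 to 637 counts in liver and 17150 to 32128 in brain, while Snap25 had 0 to 3 counts in liver. Whether these features bear on the liver count of Srrm4 was not tested.

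**Figure D2:**
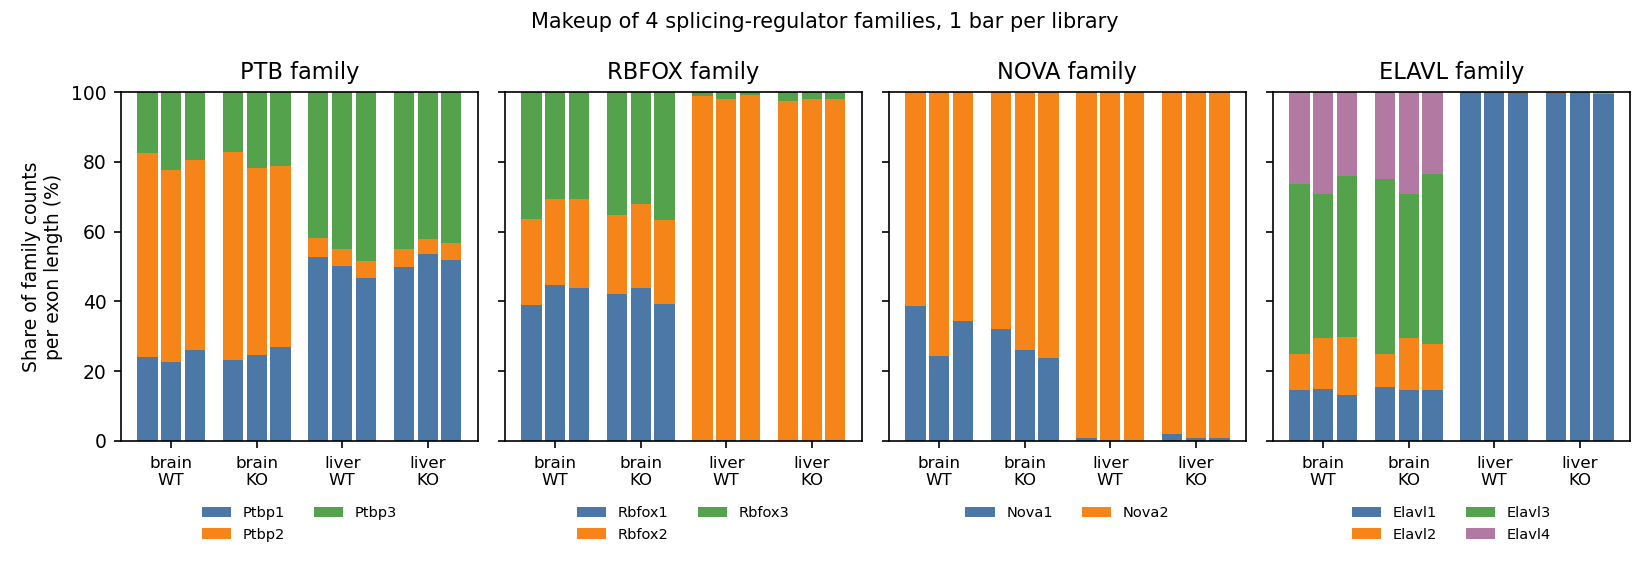
Share of each paralog in the counts of its family per exon length (%), 1 stacked bar a library, for the PTB, RBFOX, NOVA and ELAVL families in the 4 groups. Ptbp2 takes 51.9% to 59.9% of the PTB bars in brain and 4.28% to 5.57% in liver, and Rbfox2, Nova2 and Elavl1 fill nearly all of their families' bars in liver.

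Ptbp1 and Ptbp2 moved in opposite directions between the tissues. Ptbp1 (chromosome 10, 79854427 to 79864771, plus strand) stood at 22.0, 20.0 and 21.1 CPM in wild-type brain and at 116, 121 and 118 CPM in wild-type liver. The knockout gave 19.9, 20.1 and 23.5 CPM in brain and 129, 131 and 134 CPM in liver. It was lower in brain by 2.49 ± 0.10 on the log2 scale in the wild type and by 2.65 ± 0.11 in the knockout (edgeR adjusted p = 2.73e-07 and 5.55e-07).

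Ptbp2 (chromosome 3, 119718742 to 119784466, minus strand), the neuronal paralog, was at 104, 94.7 and 86.1 CPM in wild-type brain and 99.8, 84.2 and 87.8 CPM in knockout brain. Liver held 23.8, 23.6 and 22.9 CPM in the wild type and 24.7, 20.2 and 24.5 CPM in the knockout. It was higher in brain by 2.03 ± 0.11 and 1.95 ± 0.13 on the log2 scale (edgeR adjusted p = 1.36e-06 and 4.83e-06). All livers therefore kept a Ptbp2 level of 359 to 473 counts. Gm42664, within Ptbp2 on the same strand with no shared exon, was counted 335 to 601 times in brain libraries and 85 to 143 times in livers, which differs from the same-strand genes inside Srrm4.

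Per exon length the PTB family was split 24.2% ± 1.7 Ptbp1, 56.2% ± 2.2 Ptbp2 and 19.7% ± 2.5 Ptbp3 in wild-type brain (SD, n = 3). In wild-type liver the shares were 49.8% ± 2.9, 5.10% ± 0.44 and 45.1% ± 3.4. The knockout gave 24.9% ± 1.9, 55.1% ± 4.2 and 20.1% ± 2.6 in brain and 51.9% ± 1.9, 4.72% ± 0.38 and 43.4% ± 1.5 in liver. Ptbp2 exceeded Ptbp1 by 1.93 to 2.59 times per kilobase in each brain library, and Ptbp1 exceeded Ptbp2 by 9.45 to 12.5 times in each liver library. These ratios depend on the gene length used, a check added after seeing the data. With the longest annotated transcript they were 2.92 to 3.93 in brain and 6.24 to 8.27 in liver, and without a length correction 3.73 to 5.02 and 4.88 to 6.48. The direction was the same in every library with each of the 3 lengths. The summed family level was 17.2 to 19.3 CPM per kilobase in brain and 46.6 to 54.3 in liver. Ptbp3, the third paralog, was higher in liver as well, by 2.64 ± 0.15 on the log2 scale in the wild type. With the longest transcript as gene length the Ptbp2 share was 8.54% in wild-type and 7.89% in knockout liver. Without a length correction Ptbp1 held 14.7% of the family in wild-type brain and 38.1% in wild-type liver. Expected counts of Ptbp1 were not whole numbers in 7 of 12 libraries, as happens where reads are shared between genes. Plppr3, on the opposite strand of Ptbp1 with 251 bases of shared exon, was counted 371 to 633 times in brain libraries and 0 to 5 times in livers. Whether counting used strand was not given in the sources used here. The levels printed for Ptbp1, whose brain libraries had 402 to 512 counts, and for Esrp2, Nova2, Srrm4 and their antisense neighbours may therefore hold reads of the opposite strand.

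Promoter windows of 3 of these genes are shown because Ptbp1 and Ptbp2 moved oppositely between the tissues and Srrm4 kept a liver level. The windows run from 250 bases before to 50 after the start in RefSeq on GRCm38.p6, 5′ to 3′ on the gene's strand, with CG dinucleotides in capitals. They lie at chr10:79854182-79854481 (plus), chr3:119783339-119783638 (minus) and chr5:116591768-116592067 (minus).
Ptbp1: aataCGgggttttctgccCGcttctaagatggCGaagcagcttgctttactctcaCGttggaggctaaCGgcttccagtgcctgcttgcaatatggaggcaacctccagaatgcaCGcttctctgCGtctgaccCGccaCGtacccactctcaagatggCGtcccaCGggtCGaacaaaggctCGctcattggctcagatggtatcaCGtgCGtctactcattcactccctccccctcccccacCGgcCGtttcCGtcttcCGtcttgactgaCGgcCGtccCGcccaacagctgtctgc
Ptbp2: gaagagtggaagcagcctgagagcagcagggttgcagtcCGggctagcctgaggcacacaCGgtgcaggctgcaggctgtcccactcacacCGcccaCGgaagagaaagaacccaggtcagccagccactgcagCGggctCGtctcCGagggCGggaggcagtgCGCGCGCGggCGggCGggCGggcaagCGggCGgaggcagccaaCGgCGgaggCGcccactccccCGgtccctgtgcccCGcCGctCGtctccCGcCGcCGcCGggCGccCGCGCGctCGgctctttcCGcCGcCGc
Srrm4: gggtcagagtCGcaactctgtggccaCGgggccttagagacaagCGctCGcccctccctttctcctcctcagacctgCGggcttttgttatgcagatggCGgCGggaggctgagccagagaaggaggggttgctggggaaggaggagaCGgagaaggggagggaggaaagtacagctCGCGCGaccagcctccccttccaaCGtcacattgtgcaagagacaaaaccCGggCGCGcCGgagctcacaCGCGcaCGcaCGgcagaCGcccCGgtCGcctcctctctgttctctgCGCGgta
They held 22, 36 and 25 CG dinucleotides, beside a median of 7 over 32851 promoters. RefSeq windows were matched for 8 of the 10 genes. Elavl3 held 29, Nova2 17 and Nova1 14, while the 2 windows of Rbfox1 held 3 and 7 and that of Rbfox3 held 4. Some windows lie inside the gene spans given above, away from the 5′ end. That of Rbfox3 is at 118760992 to 118761291, with the 5′ end of the gene at 118911597. The second Rbfox1 window starts at 7069585, with the 5′ end at 5885355, and the Ptbp2 window lies short of the 5′ end at 119784466. Parts of the element bound by REST, a repressor of neuronal genes, and the E-box bound by ZEB factors were searched on both strands by exact letters. CAGCACC was in none of the members' windows and 7.14% of all promoters, and GGACAGC was in Ptbp2 and 6.56% of all. CAGGTG was in Elavl3 and Rbfox3 and 20.2% of all. A match is a description of letters only.

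Esrp2 (chromosome 8, 106130319 to 106136974, minus strand) was, beside Ptbp1, the other gene of the group that was higher in liver. It stood at 127, 111 and 91.6 CPM in wild-type liver and at 118, 117 and 103 CPM in knockout liver. Wild-type brains had 1, 0 and 1 counts, and knockout brains 0, 2 and 11. The pooled liver-to-brain ratio was 3857 (1067 to 31852, counting error only) in the wild type and 561 (328 to 1054) in the knockout. Knockout brain replicate 3 held 11 of the 13 knockout brain counts, and without it the knockout ratio was 2419 (669 to 19978). The same library had 23 counts of the paralog Esrp1, 11 of the epithelial adhesion gene Epcam and 5 of the epithelial regulator Grhl2, where the other brain libraries had 0 to 6, 0 to 4 and 0 to 1. Of the 6 hepatocyte markers it had 31.6 counts of Cyp2e1 (0 to 3.08 in the other brain libraries) and 2 of Hnf4a (0 in the others). Its 2 counts of Alb, 3 of Apoa1, 11 of Cps1 and 0 of Tat lay within the other brain libraries, which had 0 to 5, 1 to 11, 5 to 11 and 0 to 2. The part of these genes in the Esrp2 count was not tested. In liver Esrp2 made up 99.8% ± 0.1 of the ESRP pair per exon length in the wild type and 99.7% ± 0.2 in the knockout. On the opposite strand Esrp2 shares 219 bases of exon with Nfatc3 and 119 with 1810019D21Rik, which had 1195 to 1565 and 273 to 481 counts in liver.

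Ranked per kilobase of the union of a gene's exons, wild-type brain read Rbfox1 at 43.9, Rbfox3 at 33.7, Rbfox2 at 25.7 and Elavl3 at 24.6 CPM per kilobase. Nova2 at 16.8, Ptbp2 at 10.4, Nova1 at 7.93, Srrm4 at 6.23 and Ptbp1 at 4.44 followed, with Esrp2 last at 0.00668. The neighbours Rbfox2 and Elavl3 overlapped in range, as did Nova1 and Srrm4, and no other neighbours did. In knockout brain the order differed only in Srrm4 at 6.91 and Nova1 at 6.86, which again overlapped. Wild-type liver was led by Esrp2 at 25.4 and Ptbp1 at 25.0 CPM per kilobase, which overlapped. Rbfox2 at 7.39, Ptbp2 at 2.55, Srrm4 at 2.00, Nova2 at 0.630 and Rbfox3 at 0.0955 followed, none overlapping the next. Rbfox1, Nova1 and Elavl3 came last with 0 to 2 counts a library. Knockout liver had Ptbp1 at 27.7 above Esrp2 at 26.0 with no overlap, and its Ptbp2 and Srrm4 overlapped. Several of these neighbours changed with the longest annotated transcript as gene length, also tried after seeing the data. In wild-type brain Rbfox1 at 63.2 and Rbfox3 at 62.2 CPM per kilobase then overlapped, as did Srrm4 and Ptbp1, and Elavl3 stood above Rbfox2 and Ptbp2 above Nova2. In knockout brain Elavl3 and Ptbp2 again stood above Rbfox2 and Nova2, Rbfox3 at 72.7 stood above Rbfox1 at 67.9 with overlap, Nova1 stood above Srrm4 and Srrm4 overlapped Ptbp1. Ptbp1 led wild-type liver at 37.3 against 31.1 for Esrp2, with no overlap, and Ptbp2 and Srrm4 did not overlap in knockout liver.

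Within brain some regulators were steadier than others. Over the 6 brain libraries the highest CPM was 1.18 times the lowest for Rbfox2 and for Ptbp1, 1.19 for Elavl3, 1.24 for Ptbp2 and 1.25 for Rbfox1. It was 1.43 for Nova1, 1.44 for Nova2, 1.47 for Rbfox3 and 1.49 for Srrm4. Rbfox2, Rbfox3 and Srrm4 were each lowest in wild-type replicate 3, Srrm4 at 47.0 CPM beside 47.1 in knockout replicate 2. That library had the highest oligodendrocyte marker sum, 5136 CPM. Rbfox1, Nova1, Nova2, Elavl3, Ptbp1 and Ptbp2 were lowest in other libraries, and Nova1 stood at 71.6 CPM in wild-type replicate 3. The part of the oligodendrocyte markers in these levels was not tested. Over the 6 livers the same ratio was 1.15 for Ptbp1, 1.22 for Ptbp2, 1.39 for Esrp2, 1.41 for Rbfox2, 1.99 for Nova2, 2.25 for Srrm4 and 2.26 for Rbfox3. Rbfox3 had only 8 to 18 counts in a liver library, where counting error alone is large.

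The genes whose pattern over the 12 libraries was most like a member's were found by the root-mean-square difference of log2(CPM + 1) after centring each of 20141 genes, as a description. For Rbfox1 they were Gpr158 at 0.08 and Slc4a10 at 0.09, and for Elavl3 Gad1 at 0.09, genes at 0 or near it in liver. St8sia1 and Diras1 were nearest to Nova1 at 0.10 and 0.12, Rnf112 and Car10 to Rbfox3 at 0.16 and 0.17, and Mark1 and Sept8 to Nova2 at 0.17 each. Of the genes that both tissues express, Rbfox2 had Zfp704 at 0.08 and Camsap2 at 0.09. Ptbp2 had 1700020I14Rik at 0.07. Nearest to Ptbp1 were Itga1 at 0.08 and Abcc9 at 0.09, and nearest to Esrp2 were Tfr2 at 0.16, the transferrin receptor 2 gene of hepatocytes, and Gm4756 at 0.18. Srrm4 had no gene closer than Slx4 at 0.22 and Mthfd1l at 0.24.

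Other genes of the splicing machinery and the known regulators of these genes were counted in 5 lists. Genes are counted where both the wild-type and the knockout contrast called them in the same direction, as was so for 74.7% of the 18380 genes tested in both (41.4% higher and 33.3% lower in brain). With library totals in place of TMM that share was 79.3%, and the counts of all 5 lists changed while those of the 10 splicing regulators stayed at 8 higher and 2 lower, so both counts are given. Of 38 other regulated splicing factors tested, 21 were higher and 6 lower in brain with TMM, and 30 and 3 with library totals. Celf4 was higher by 8.31 ± 0.19, Raver2 by 4.89 ± 0.35 and Celf2 by 3.81 ± 0.19 on the log2 scale in the wild type. Rbm47, an RNA-binding protein of liver and gut that works with APOBEC1, was lower in brain by 6.48 ± 0.39. Rbm38 was lower by 1.12 ± 0.30, a wild-type call that was lost with library totals (-0.28, edgeR adjusted p = 0.425). In the wild type 73.7% of this list was called with TMM, beside 78.6% of all genes. The list's wild-type median was 0.58 beside 0.21 for all genes. Of its genes, 9 were at 3 counts or less in each wild-type library of 1 tissue. Set at that bound they stayed on the same side of the median, which therefore could not move and is no check.

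For the general machinery the balance of higher and lower calls turned on the scaling. Of 23 SR proteins and relatives 6 were higher and 6 lower in brain with TMM, and 19 and 0 with library totals. In this list Srpk2, a kinase of SR proteins, was higher by 2.23 ± 0.12 and Srsf2 lower by 1.05 ± 0.12, the latter not called with library totals (-0.21, edgeR adjusted p = 0.170). Among 25 hnRNP genes 8 were higher and 7 lower with TMM, and 20 and 3 with library totals. Pcbp3 was higher by 4.51 ± 0.17 and Hnrnpf lower by 1.96 ± 0.10. Of 40 core spliceosome genes 6 were higher and 16 lower with TMM, and 27 and 1 with library totals, so the list's direction reversed. Snrpn, an imprinted Sm protein gene of neurons, was higher by 5.23 ± 0.15 and the helicase gene Dhx16 lower by 1.51 ± 0.10. The median absolute wild-type difference was 0.28 for SR proteins and relatives, 0.55 for hnRNP genes and 0.40 for the core spliceosome with TMM, and 0.79, 1.02 and 0.69 with library totals. It was 1.57 for the other regulated factors, 6.59 for the 10 regulators and 1.55 for all genes tested with TMM, and with library totals 2.19, 7.43 and, over the genes tested in both contrasts, 1.74.

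All 12 of the upstream regulators tested were called in both contrasts, 8 higher and 4 lower in brain (8 and 3 with library totals), beside 74.7% of all genes. Of these regulators, 5 were at 3 counts or less in each wild-type library of 1 tissue. Rest, the repressor of neuronal genes, was at 8.83 ± 1.03 CPM in wild-type brain and 57.4 ± 0.7 CPM in wild-type liver (SD, n = 3), lower in brain by 2.69 ± 0.12 on the log2 scale. Zeb1 and Zeb2, repressors of the ESRP genes in mesenchymal cells, were higher in brain by 0.71 ± 0.11 and 1.73 ± 0.16. Grhl1, a grainyhead gene of the family that supports epithelial expression, was also higher in brain, by 2.18 ± 0.28. Snai1 and Snai2, of the same regulatory group, were lower in brain by 2.60 ± 0.37 and 3.99 ± 0.41. Their wild-type brain levels were 0.215 and 0.322 CPM, near the floor, and their wild-type liver levels 1.34 and 5.28 CPM. Mir124a-1hg, the host transcript of a microRNA that represses Ptbp1, was named after its values were seen. Brain libraries held 3875 to 6095 counts of it and livers 0 to 1, and its wild-type brain level was at least 1255-fold higher with the livers set at 3 counts.

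**Figure D3:**
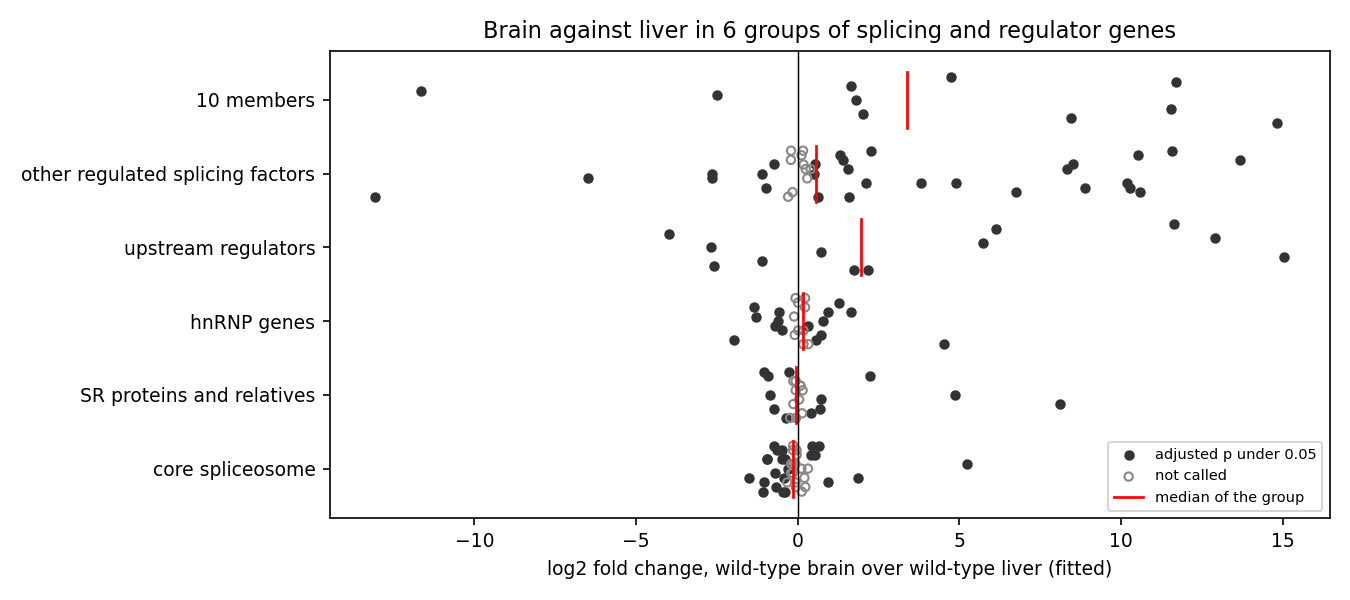
Log2 fold change, fitted with TMM, of wild-type brain over wild-type liver, 1 point a gene, for the 10 regulators (10 members) and 5 other lists, filled where the adjusted p was under 0.05, with the median of each list as a red bar. Most points of the hnRNP, SR and core spliceosome lists lie near 0, and the size of values for genes at 3 counts or less in 1 tissue depends on the prior count of the fit.

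No regulator was called between knockout and wild type in either tissue. In brain 0% of 18075 genes were called (edgeR adjusted p under 0.05, 0 higher and 0 lower, and 0 by DESeq2), and 0.675% had an unadjusted p under 0.05. Esrp2 was too low to be tested there, and none of the other 9 regulators had an unadjusted p under 0.05. Nova1 had the lowest unadjusted p of the 9 and differed by -0.22 ± 0.13 on the log2 scale (95% interval -0.54 to 0.10, edgeR adjusted p = 1.00). Rbfox3 differed by 0.21 ± 0.13 (-0.11 to 0.53), Srrm4 by 0.14 ± 0.18 (-0.30 to 0.57) and Nova2 by 0.12 ± 0.17 (-0.29 to 0.52). The ranges of wild-type and knockout brain overlapped for all 9, while 4.23% of all genes tested had ranges apart. The other 5, Rbfox1, Rbfox2, Elavl3, Ptbp1 and Ptbp2, lay between -0.08 and 0.09, and their intervals reached from -0.34 to 0.37. These intervals are the size of change that 3 libraries a group leave undecided.

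Liver gave 0% called of 15329 genes (10 genes by DESeq2, no regulator among them), and 3.50% reached an unadjusted p under 0.05, among them none of the 7 regulators tested. Ptbp1 had the smallest p of the 7. Its knockout livers at 129, 131 and 134 CPM lay above the wild-type livers at 116, 121 and 118 CPM, a difference of 0.16 ± 0.08 on the log2 scale (-0.02 to 0.33, unadjusted p = 0.0744 and adjusted p = 0.992 in edgeR's test). It was the 1 regulator of 7 whose ranges did not overlap, beside 9.64% of all genes tested. The summed Kupffer cell markers were 90.0, 120.2 and 102 CPM in wild-type and 131, 224 and 105 CPM in knockout livers, in order of replicate. Knockout replicate 2 also had the highest liver sums of cholangiocyte markers (154 CPM) and microglia markers (162 CPM). The part of these markers' cells in the Ptbp1 value was not tested. Rbfox2 differed by -0.17 ± 0.12 (-0.45 to 0.11), Nova2 by 0.16 ± 0.26 (-0.45 to 0.77) and Srrm4 by -0.21 ± 0.34 (-1.03 to 0.62). Between same-numbered livers the knockout was lower in 3 of 3 pairs for Rbfox2 and for Srrm4 and higher in 3 of 3 for Ptbp1, and mixed for the other 4 genes tested, where 28.8% of all genes tested had 1 direction in all 3 pairs. With the replicate block these were -0.16 ± 0.07, -0.24 ± 0.13 and 0.16 ± 0.08 (edgeR adjusted p = 0.796, 0.806 and 0.803). Rbfox3 differed by 0.56 ± 0.39 (-0.34 to 1.46), at 8 to 18 counts a library. Ptbp2 and Esrp2 differed by -0.01 ± 0.10 (-0.24 to 0.23) and 0.04 ± 0.13 (-0.26 to 0.34). Rbfox1, Nova1 and Elavl3 were too low in liver to be tested. A fit that blocks on replicate number called 2 genes of the whole table in liver, neither of them a regulator.

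**Figure D4:**
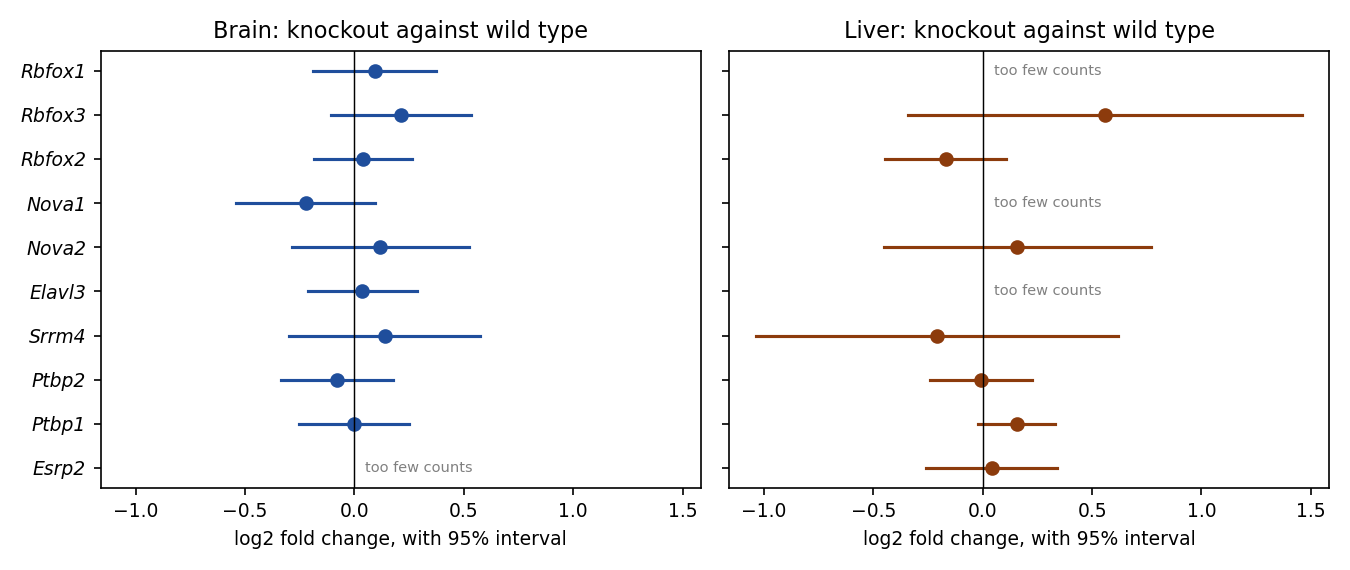
Log2 fold change of knockout over wild type (points) with its 95% interval (lines) for each regulator tested, 9 in brain (left) and 7 in liver (right). Each interval includes 0, and the widest is that of Rbfox3 in liver.

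A test of whether the knockout effect differed by tissue, over all 12 libraries, called 0% of 20141 genes, with 2.43% at an unadjusted p under 0.05 and no regulator among them. The effect in liver minus that in brain was -0.23 ± 0.16 (95% interval -0.58 to 0.12) for Rbfox2 and 0.14 ± 0.12 (-0.13 to 0.40) for Ptbp1 on the log2 scale. It was 0.33 ± 0.32 for Rbfox3, -0.37 ± 0.40 for Srrm4, 0.05 ± 0.15 for Ptbp2 and 0.02 ± 0.31 for Nova2. The fitted values of Elavl3 at 2.76, Nova1 at 1.95 and Rbfox1 at -0.56 rest on liver counts of 0 to 2 (unadjusted p = 0.0949, 0.112 and 0.633 in edgeR's test) and depend on the prior count. The fitted Esrp2 difference rests on the 11 counts of knockout brain replicate 3. In edgeR's test it was -2.55 with that library (edgeR unadjusted p = 0.0514, adjusted p = 1.00) and -0.55 without it (edgeR unadjusted p = 0.657), from counts of 0 to 2 in the other brain libraries. The p of 0.0514 is the smallest among the regulators in edgeR's test of this difference. No gene of the 5 other lists was called in a knockout contrast either, and the median absolute difference of those lists was 0.04 to 0.11 in brain, beside 0.10 over all genes.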

How the data were processed

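Expected counts per gene were deposited by the authors for 12 libraries, unnormalized. The submitters' processing notes name cutadapt, STAR and mm10. The counter and its use of strand were not given in the sources used here. All 55450 gene identifiers matched GENCODE M21 (GRCm38), the source of coordinates and exon lengths. Between 5.06% and 5.71% of a library's values were not whole and were rounded.

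Contrasts used edgeR 4.0.16 (R 4.3.3) quasi-likelihood tests with TMM factors, filterByExpr (minimum count 10, total 15) and Benjamini-Hochberg adjustment over all genes tested (threshold 0.05), each on its own 6 libraries and the interaction on 12. Standard errors are the log2 fold change over the square root of F. Ratios of pooled counts carry exact conditional 95% intervals. The floor was 3 counts a library (0.123 to 0.169 CPM). Intervals and floors cover counting error only, since PCR copies cannot be told from separate molecules here. Gene-level counts give no measure of exon choice.

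The members and lists were chosen with earlier results of these data known. Named were all members, their paralogs, Vaultrc5, up to 3 genes per direction and list with the largest change among those called in both tissue contrasts with over 3 counts and non-overlapping CPM, any list gene called in a knockout contrast, and the 2 genes most like each member. Some genes that this rule names are not reported here. Other names were chosen after their values were seen. The wild-type and knockout libraries share replicate numbers in the titles. In liver the deviations of same-numbered libraries had correlations of 0.18, 0.17 and 0.23. Libraries with different numbers were not compared, so pairing by number was not tested. Alternatives were DESeq2 1.42.0 and its size factors, library totals, no filter, a mean of 1 CPM, 1 fit for all libraries, the replicate block, other gene lengths and each library left out.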

Additional observations from a re-analysis of the deposited data

How the results depend on the processing

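All 10 regulators kept their direction and their call between brain and liver in 14 settings in each genotype, with adjusted p up to 0.00133 in the wild type and 0.00333 in the knockout (edgeR or DESeq2). No regulator was called in a knockout contrast or the interaction in any setting. Signs turned in at least 1 setting for 3 uncalled regulators in brain, 4 in liver and 2 in the interaction. Over the whole table the liver contrast called 0 genes, but 4 with no filter and 10 with DESeq2. It called 0 to 1 with each library left out, the 1 without wild-type replicate 2. The interaction called 0 genes and 1 with DESeq2. With the replicate block the liver contrast called 2 genes and the interaction 2. In brain the correlations of deviations were 0.52 and 0.53 for replicates 1 and 2 and 0.01 for replicate 3. Whether the numbers pair the libraries was not tested in either tissue. The block called 0 genes in brain, with 406 at an unadjusted p under 0.05 in edgeR's test in place of 122. The block called 14496 and 14396 genes between the tissues, where numbers showed correlations of -0.01 to 0.05. It changed no call of a regulator. Shares within families moved by over 1 SD in 19 of 38 with the longest transcript as length and in 17 of 38 without length correction. The ratio of Ptbp2 to Ptbp1 and the order of the regulators by level also moved with the gene length, as given with those results. Liver counts of 0 to 2 limit the folds of Rbfox1, Nova1 and Elavl3, as do brain counts of Esrp2. The tissue calls of these genes add no support, since only 1 tissue carried them past the filter. Leaving out a library leaves 2 in that group.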
